A study of Mus musculus with 6 samples.

Results

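The 10 genes described here encode the core of necroptosis and death-receptor signalling in the mouse: Zbp1, Ripk3, Mlkl, Ripk1, Casp8, Cflar (cFLIP), Fadd, Tradd, Birc2 (cIAP1) and Birc3 (cIAP2). They were taken by gene symbol and not by their values from a table of 55401 genes, and each of the 10 symbols matched a single row. Poly(A)-selected RNA had been sequenced from mesenchymal stromal cells, a plastic-adherent culture grown here from mouse femoral marrow, of the strain given as C57/B6J. The 6 libraries form 2 groups of 3, Nlrp3 knockout (KO; NLRP3-/- in the labels) with LPS and wild type (WT) with LPS. All 6 cultures had received 3 µg/mL LPS for 24 h, and unstimulated cultures were not analysed here, so the comparison asks about the genotype in the presence of LPS and says nothing of the response to LPS. Nlrp3 encodes the sensor of an inflammasome that activates caspase-1.

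Necroptosis is a lytic form of programmed cell death that runs beside apoptosis and shares its upstream machinery. A death receptor such as the TNF receptor assembles a complex of the adaptor TRADD, the kinase RIPK1 and the ubiquitin ligases cIAP1 and cIAP2, and from it a second complex with FADD and caspase-8 can form, in which cFLIP restrains the protease. Where caspase-8 is not active, RIPK1, the Toll-like receptor adaptor TRIF or the nucleic acid sensor ZBP1 can engage RIPK3 through a shared interaction motif, and RIPK3 phosphorylates MLKL, which breaches the plasma membrane. In macrophages and fibroblasts exposed to lipopolysaccharide (LPS), this machinery is best known for deciding between survival, apoptosis and necroptosis.

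The labels describe neither the making of the knockout nor the origin of the 3 libraries per genotype, which may be separate animals, separate cultures or neither. Every p-value is thus relative to library-to-library spread, and that spread may be technical. The titles number the libraries of each genotype as day 1, 2 and 3, whereas another label gives day 1 for all 6, so the number is used only to name replicates.

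The libraries held between 53157580 and 66298470 estimated counts, at about 4 counts per fragment. Nlrp3 was listed at 0 in every KO library, against 2.76, 1.68 and 1.86 FPKM (fragments per kilobase of gene model, scaled to library depth) in the WT libraries. Against a floor of 12 estimated counts (3 fragments) over the KO group it was at least 142-fold lower (exact two-sided permutation p = 0.1, the smallest that 3 against 3 allows). The cultures carried RNA of stromal cells and of macrophages. Over all tested genes 10.4% were called higher and 9.2% lower in KO libraries. Of 23 tested macrophage markers (of 30 listed) 22 were called higher in KO libraries, their 30 levels summing to between 1705 and 1926 FPKM in KO and between 713 and 811 FPKM in WT libraries, and no marker of the list was at 0 throughout. Of 20 tested stromal markers (of 21 listed) 5 were called higher and 11 lower, with sums of 3950 to 4366 FPKM in KO and 4640 to 5059 FPKM in WT libraries. Adgre1, which encodes the macrophage surface protein F4/80, averaged 134 ± 2.78 FPKM in KO and 44.0 ± 2.71 FPKM in WT libraries, and the stromal receptor gene Pdgfra 2.96 ± 0.23 FPKM in KO and 30.2 ± 1.71 FPKM in WT libraries (SD, n = 3 each). The macrophage markers Csf1r and Cd68 averaged 17.7 and 18.9 FPKM in KO and 6.67 and 13.3 FPKM in WT libraries. The stromal markers Thy1 and Col1a1 averaged 11.8 and 1301 FPKM in KO and 134 and 1726 FPKM in WT libraries. Ptprc, at 0.843 FPKM in KO and 0.303 FPKM in WT libraries, was below the filter and left out of the main test. Of 11 granulocyte markers 4 were tested (3 called higher, 1 lower), of 12 dendritic cell and MHC class II markers 3 (all higher), of 14 lymphoid markers 2 (1 higher, 1 lower) and of 9 endothelial markers 0.

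The sequences just upstream of the start sites of Ripk3, Mlkl and Ripk1 are shown because the first pair belongs to the genes that were called and the third to the partner kinase that was not. They are the 250 bases before the RefSeq start, in the direction of the gene, on build GRCm38.p6. Ripk3 lies at chr14:55788858-55789107 (minus strand), Mlkl at chr8:111338206-111338455 (minus strand) and Ripk1 at chr13:34002113-34002362 (plus strand). Capitals mark matches, on either strand, to any of 7 motifs. These are the interferon response element core, in which 2 copies of GAAA are 2 bases apart, the STAT site TTCNNNGAA and the NF-κB consensus. The others are the E-box (CACGTG), the GC box (read as GGGCGG), the TATA box (read as TATAAA) and the CCAAT box.
Ripk3: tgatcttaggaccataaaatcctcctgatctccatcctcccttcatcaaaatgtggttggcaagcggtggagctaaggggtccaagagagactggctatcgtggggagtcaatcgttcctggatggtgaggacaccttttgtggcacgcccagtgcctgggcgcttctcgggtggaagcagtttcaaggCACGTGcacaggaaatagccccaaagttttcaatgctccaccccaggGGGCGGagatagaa
Mlkl: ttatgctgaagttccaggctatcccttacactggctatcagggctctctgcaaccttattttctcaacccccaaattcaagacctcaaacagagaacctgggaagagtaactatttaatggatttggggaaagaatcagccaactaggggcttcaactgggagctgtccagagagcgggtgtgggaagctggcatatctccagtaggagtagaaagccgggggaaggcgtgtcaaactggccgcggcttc
Ripk1: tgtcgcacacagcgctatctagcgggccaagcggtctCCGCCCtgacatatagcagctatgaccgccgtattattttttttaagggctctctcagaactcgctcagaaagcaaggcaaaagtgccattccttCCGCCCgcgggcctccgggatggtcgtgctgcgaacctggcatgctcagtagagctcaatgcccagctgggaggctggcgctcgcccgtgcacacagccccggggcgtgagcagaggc

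The Ripk1 window also lies inside Serpinb6a, a gene on the other strand that overlaps the 5' end of Ripk1. The Ripk3 window held an E-box at positions -61 to -56 from the start and a GC box at -14 to -9, the Mlkl window held none of the 7 motifs, and the Ripk1 window held 2 GC boxes. Over all 32851 RefSeq windows of the same length, 6.02% held the E-box and 32.7% the GC box. RefSeq windows matched 8 of the 10 genes by symbol, the exceptions being Zbp1 and Tradd. In none of the 10 windows of these 8 genes was there a match to the interferon response element core, found in 2.98% of all windows, or to the NF-κB consensus, found in 3.9%. The STAT site, found in 7.02% of all windows, occurred 2 times before the other annotated start of Ripk1 and in no other window of these genes. A match or its absence describes these letters and is no evidence on the binding of a factor.

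All 10 genes passed the expression filter, and 3 of them were called, all lower in KO cultures: Ripk3, Zbp1 and Mlkl. They encode the kinase, the sensor and the executioner of necroptosis, while the adaptors, caspase-8, cFLIP, RIPK1 and the cIAPs were not called. The test was limma on log2(FPKM + 1) with Benjamini-Hochberg adjustment over 12136 genes at a threshold of 0.05. Of these 10 genes 3 were called lower and 0 higher, beside 9.2% lower, 10.4% higher and 19.6% in either direction over all tested genes. At an unadjusted p under 0.05 the number was 5 of 10 in limma, beside 31.1% of all tested genes. On the estimated counts, edgeR with TMM factors called 3 lower and 0 higher beside 8.12% and 8.48% of all genes, edgeR with RLE factors the same numbers beside 8.04% and 8.68%, and DESeq2 the same numbers beside 8.05% and 8.69%. The median log2 fold change of the 10 genes was -0.13, and that of all tested genes 0.01. KO and WT values did not overlap for 5 genes that were lower and 2 that were higher in KO, beside 18.0% and 18.8% of all tested genes (36.7% in either direction). None of these shares was tested. In bulk cultures, fewer cells that express a gene and less RNA per cell cannot be told apart. In the same KO libraries 22 of 23 tested macrophage markers were called higher. Of 20 tested stromal markers 11 were called lower and 5 higher. The part of either cell type in these differences was not tested.

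The calls of Ripk3, Zbp1 and Mlkl held in each of 14 alternative fits, whose backgrounds differed. In limma the share of all genes called lower in KO was 4.48% without a filter, 8.76% with a filter on the mean, 9.1% with a smaller pseudocount, 9.06% with TMM-scaled FPKM and 8.08% with the replicate number as a block. The share called higher was 5.06%, 9.85%, 10.4%, 9.66% and 9.11% in the same fits. Without KO replicate 1, 2 or 3 the share called lower was 6.34%, 7.52% or 10.8% and the share called higher 5.98%, 7.58% or 12.4%. Without WT replicate 1, 2 or 3 the share called lower was 4.91%, 5.69% or 5.4% and the share called higher 7.1%, 7.55% or 7.2%.

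**Figure D1:**
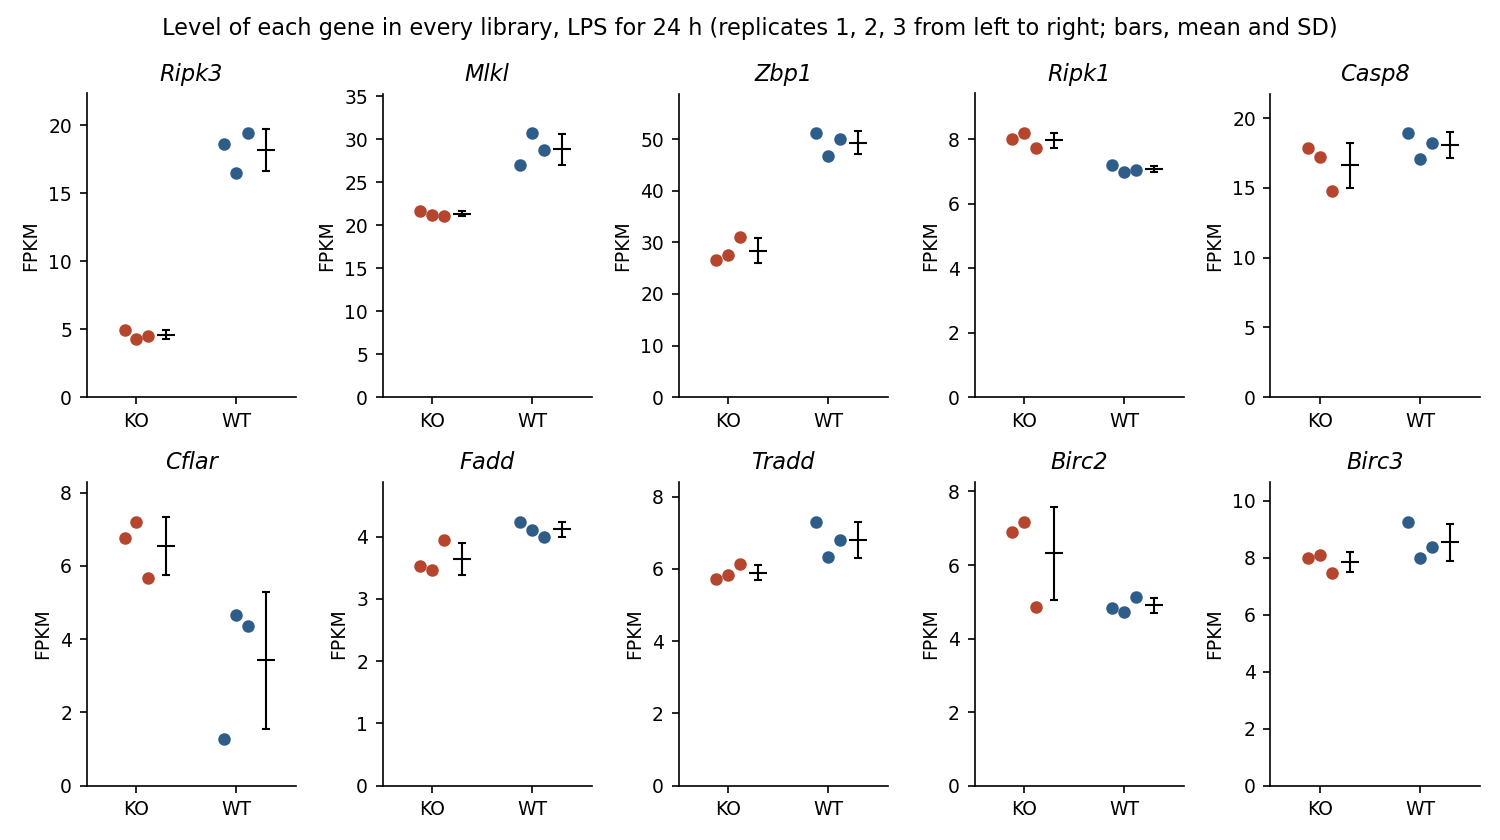
Level of each of the 10 genes in FPKM (vertical axes, from 0) in the 3 KO libraries and the 3 WT libraries, each point a library and each bar the mean and SD. Ripk3, Mlkl and Zbp1 lie lower in all KO libraries than in any WT library, while Cflar has 1 WT library at 1.27 FPKM apart from the others.

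Ripk3 showed the largest difference of the 10. The gene (ENSMUSG00000022221, GRCm38 chromosome 14, 55784995 to 55788865, minus strand) encodes the kinase that phosphorylates MLKL. It stood at 4.93, 4.29 and 4.52 FPKM in KO replicates 1, 2 and 3, against 18.65, 16.45 and 19.42 FPKM in WT replicates 1, 2 and 3. All KO values lay far below the lowest WT value, and both groups were tight. The mean was 4.58 ± 0.32 FPKM in KO and 18.2 ± 1.54 FPKM in WT libraries (SD, n = 3 each), a 3.97-fold lower level in KO. On the log2(FPKM + 1) scale, which understates changes of low genes, the difference was -1.78 ± 0.09 (SE; 95% interval -1.99 to -1.57, limma adjusted p = 4.09e-05). That placed it at rank 65 of 12136 genes ordered from the largest decrease. The estimated counts behind the KO values correspond to about 200, 160 and 171 fragments, and those behind the WT values to about 696, 693 and 656. In GENCODE M21 no other annotated gene overlaps Ripk3.

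Zbp1, which encodes the sensor of Z-form nucleic acids and is itself interferon-induced, had the second largest decrease of the 10. The gene (ENSMUSG00000027514, chromosome 2, 173206612 to 173218923, minus strand) stood at 26.56, 27.61 and 31.09 FPKM in KO, against 51.17, 46.81 and 49.96 FPKM in WT replicates 1, 2 and 3. The groups were well apart, although Zbp1 was the most abundant of the 10 genes per length in both. The mean fell by 42.4%, with 28.4 ± 2.37 FPKM in KO and 49.3 ± 2.25 FPKM in WT libraries (log2 fold change -0.78 ± 0.08 SE, 95% interval -0.97 to -0.58, limma adjusted p = 0.000889).

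Mlkl, the executioner (ENSMUSG00000012519, chromosome 8, 111311797 to 111338177, minus strand), fell less. Its level was 21.66, 21.19 and 21.08 FPKM in KO and 26.99, 30.69 and 28.68 FPKM in WT replicates 1, 2 and 3. The KO libraries were almost equal to each other and all below the WT libraries. The mean was 21.3 ± 0.31 FPKM in KO and 28.8 ± 1.85 FPKM in WT libraries (SD, n = 3 each), which is 1.35-fold lower in KO (log2 fold change -0.42 ± 0.07 SE, 95% interval -0.58 to -0.25, limma adjusted p = 0.00631).

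Because the substrate fell less than the kinase, the ratio of Mlkl to Ripk3 in FPKM differed between the genotypes. It was 4.39, 4.94 and 4.66 in KO and 1.45, 1.87 and 1.48 in WT replicates 1, 2 and 3, so the groups were far apart. Ripk1 to Ripk3, a ratio chosen after its values were seen, was 1.62, 1.91 and 1.71 in KO and 0.386, 0.425 and 0.364 in WT libraries: Ripk1 was the more abundant of both kinases in every KO library and the less abundant in every WT library. These ratios are descriptions without a test.

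**Figure D2:**
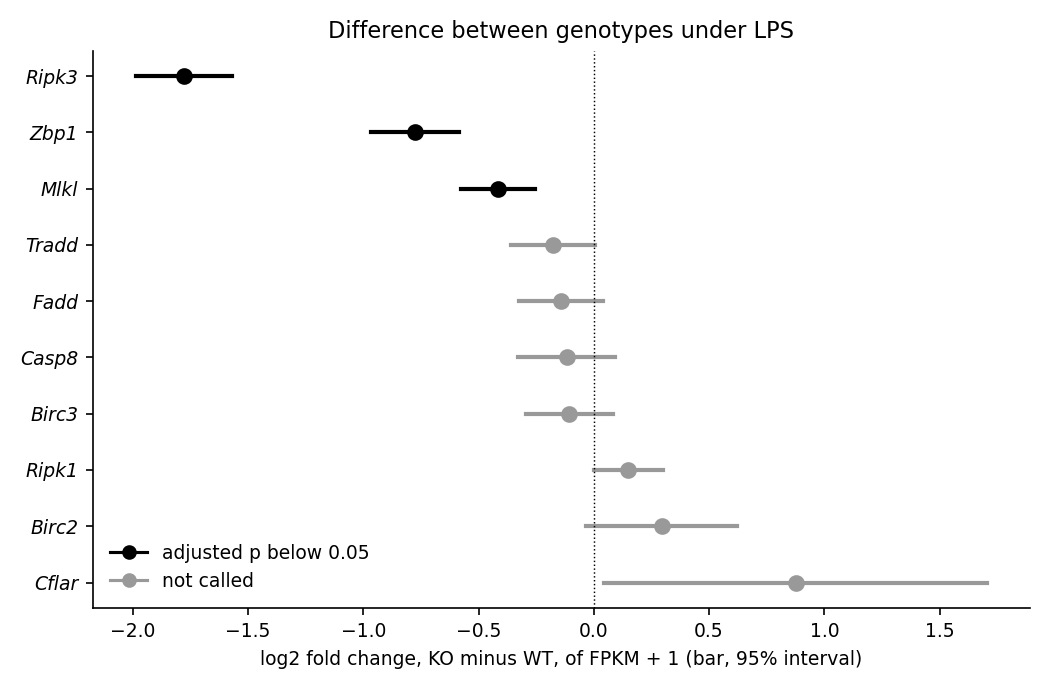
Difference of each of the 10 genes between KO and WT as log2 fold change of FPKM + 1 (horizontal axis), with the 95% interval of limma as a bar; black marks genes with an adjusted p below 0.05. Ripk3 at -1.78, Zbp1 at -0.78 and Mlkl at -0.42 are the called genes, and Cflar has the widest interval, 0.05 to 1.71.

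Ripk1 (ENSMUSG00000021408, chromosome 13, 34002363 to 34033677, plus strand), the kinase that scaffolds survival signalling and can start either form of death, was slightly higher in KO without being called. Its levels were 8.00, 8.19 and 7.72 FPKM in KO and 7.19, 6.99 and 7.06 FPKM in WT replicates 1, 2 and 3. The groups did not overlap, but the difference of 0.15 ± 0.06 on the log2 scale (SE, 95% interval 0.00 to 0.30) had a limma adjusted p of 0.157. The 5' end of Ripk1 overlaps Serpinb6a, transcribed from the other strand, by 432 bases; Serpinb6a reached 45.77 FPKM, and the use of strand in counting is not stated.

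Both adaptors were expressed at a few FPKM. Tradd (chromosome 8, 105258286 to 105264609), which links the TNF receptor to RIPK1, was at 5.72, 5.84 and 6.14 FPKM in KO and 7.31, 6.32 and 6.80 FPKM in WT replicates 1, 2 and 3. Fadd (chromosome 7, 144577318 to 144582463), which recruits caspase-8, was at 3.53, 3.46 and 3.94 FPKM in KO and 4.24, 4.11 and 4.0 FPKM in WT libraries. Both were lower in every KO library than in any WT library, by narrow margins. Neither was called (Tradd -0.18, 95% interval -0.36 to 0.01, limma adjusted p = 0.171; Fadd -0.14, interval -0.32 to 0.04, adjusted p = 0.265).

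Casp8 (chromosome 1, 58795374 to 58847503), the protease that cleaves RIPK1 and RIPK3 and so holds necroptosis back, stood at 17.84, 17.25 and 14.79 FPKM in KO and 18.93, 17.08 and 18.25 FPKM in WT replicates 1, 2 and 3. The groups overlapped, and the difference was -0.12 (95% interval -0.33 to 0.09, limma adjusted p = 0.421). Casp8 and Ripk3 had overlapping levels in WT libraries, whereas in KO libraries Casp8 was the higher of both throughout.

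Cflar, which encodes the caspase-8 inhibitor cFLIP and lies beside Casp8 (chromosome 1, 58711508 to 58758884), had 1 library far apart from the others. It had 6.76, 7.21 and 5.67 FPKM in KO and 1.27, 4.65 and 4.36 FPKM in WT replicates 1, 2 and 3. WT replicate 1 was 3.43-fold below the next lowest library, from about 263 fragments against 1082 and 814 in the other WT libraries, while Casp8 in that library was at its highest, 18.93 FPKM. All KO values were above all WT values, with a log2 fold change of 0.88 ± 0.35 (SE, 95% interval 0.05 to 1.71, limma adjusted p = 0.14). Without WT replicate 1 the difference was 0.45 (adjusted p = 0.0697), with means of 6.55 FPKM in KO and 4.51 FPKM in the remaining WT libraries. The ratio of Cflar to Casp8 was 0.379, 0.418 and 0.383 in KO and 0.0671, 0.272 and 0.239 in WT replicates 1, 2 and 3, higher in each KO library than in any WT library.

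The ubiquitin ligases that hold RIPK1 in the survival complex are neighbours on chromosome 9. Birc2 (7818227 to 7837063) was at 6.91, 7.18 and 4.86 FPKM in KO and 4.84, 4.72 and 5.14 FPKM in WT replicates 1, 2 and 3. Here KO replicate 3 fell within the WT range while the other KO libraries were above it, and the difference of 0.30 (95% interval -0.03 to 0.62) had a limma adjusted p of 0.201. Without KO replicate 3 it was 0.45 and was called (adjusted p = 0.00996). Birc3 (7848699 to 7873170), the NF-κB-induced paralog, was at 8.00, 8.10 and 7.45 FPKM in KO and 9.26, 7.97 and 8.37 FPKM in WT libraries, with overlapping groups (-0.11, interval -0.29 to 0.08, adjusted p = 0.415). The ratio of Birc3 to Birc2 was 1.16, 1.13 and 1.53 in KO and 1.91, 1.69 and 1.63 in WT replicates 1, 2 and 3, lower in every KO library, with KO replicate 3 closest to the WT libraries.

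**Figure D3:**
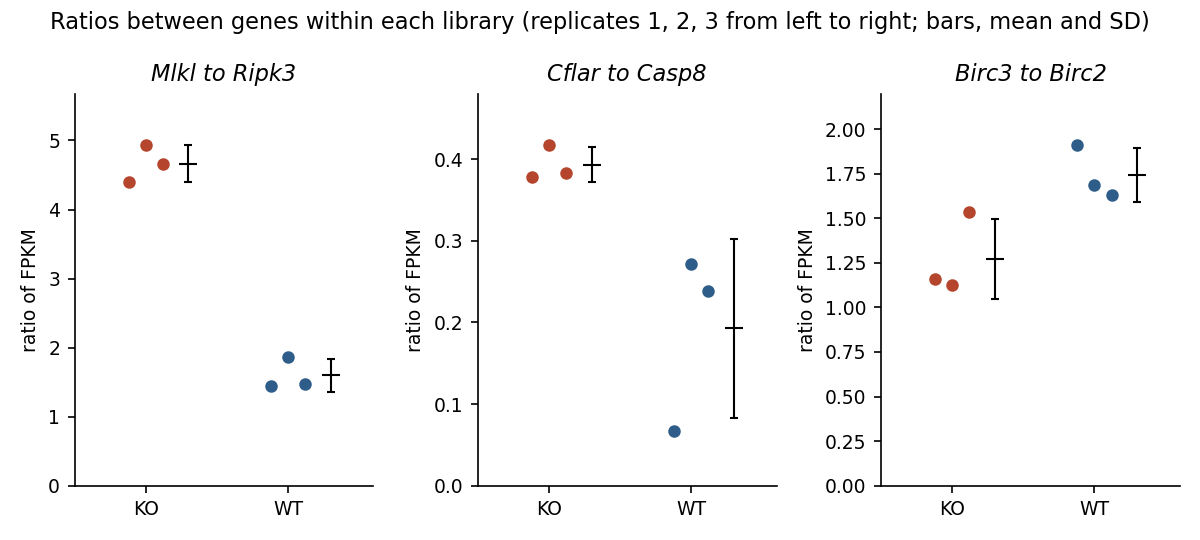
Ratios of FPKM between Mlkl and Ripk3, Cflar and Casp8, and Birc3 and Birc2 within each library (vertical axes, from 0; points, the 3 KO and the 3 WT libraries; bars, mean and SD). The Mlkl to Ripk3 ratio lies between 4.39 and 4.94 in KO and between 1.45 and 1.87 in WT libraries.

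Per length, the order of the 10 genes also differed. In KO libraries it ran from Zbp1 (28.4 FPKM) through Mlkl (21.3), Casp8 (16.6), Ripk1 (7.97), Birc3 (7.85), Cflar (6.55), Birc2 (6.32), Tradd (5.90) and Ripk3 (4.58) to Fadd (3.64), all mean FPKM. In WT libraries it ran from Zbp1 (49.3 FPKM) through Mlkl (28.8), Ripk3 (18.2), Casp8 (18.1), Birc3 (8.53), Ripk1 (7.08), Tradd (6.81), Birc2 (4.90) and Fadd (4.12) to Cflar (3.43). Neighbours whose libraries overlapped were Ripk1 with Birc3 and Cflar, Birc2 and Tradd with each other in KO, and Ripk3 with Casp8, Ripk1 with Tradd, and Fadd with Cflar in WT. Ripk3 was thus at rank 9 of the 10 in KO and at rank 3 in WT libraries. The lengths behind the deposited FPKM matter for such an order. The ratio of counts to FPKM implied lengths that followed the union of all annotated exons. The largest implied length was between 1.11 and 1.12 times that union for each of the 10 genes, a nearly shared factor that does not set their order. That union is 12669 bases for Cflar, 1.93 times its longest transcript of 6572 bases, and 1.72 times the longest transcript for Birc3. In estimated counts per kilobase of the longest transcript, scaled to library depth as CPM, Cflar had 14.0 in KO and 7.33 in WT libraries, and Ripk3 5.96 in KO and 23.5 in WT libraries, which left Ripk3 at the same ranks.

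The surroundings of the pathway were described with 7 lists of genes. In the same KO libraries macrophage markers were higher, and 11 of 20 tested stromal markers were called lower and 5 higher. The part of those cells in the values below was not tested. Among death ligands and receptors, 16 of 22 passed the filter, 4 were called higher and 1 lower (median log2 fold change -0.06). These were 25% and 6.25% of the tested genes of the list, beside 10.4% and 9.2% of all tested genes. Tnf, the ligand, was at 10.72, 10.13 and 12.92 FPKM in KO and 5.77, 4.23 and 4.50 FPKM in WT replicates 1, 2 and 3, 2.33-fold higher in KO with no overlap (1.07 ± 0.13 SE, limma adjusted p = 0.0018). Of its receptor genes, Tnfrsf1a, the death domain receptor, had 59.0 ± 4.89 FPKM in KO and 68.4 ± 4.90 FPKM in WT libraries and was not called, and Tnfrsf1b, which lacks a death domain, had 52.7 ± 3.47 FPKM in KO and 42.5 ± 0.79 FPKM in WT libraries and was called higher (0.30, adjusted p = 0.0257). Tnfrsf1b lost its call in edgeR with TMM factors (adjusted p = 0.0531; 0.0422 with RLE factors) and without KO replicate 2 (0.0612) or WT replicate 1, 2 or 3 (0.106, 0.0735 and 0.0968). The other genes called were Tnfrsf12a, the TWEAK receptor (33.2 FPKM in KO, 20.5 FPKM in WT, 0.68, adjusted p = 0.00635), Tnfrsf21, a death domain receptor (1.98 FPKM in KO, 0.767 FPKM in WT, 0.75, adjusted p = 0.00516), and the interferon receptor chain Ifnar2, lower in KO (21.7 FPKM in KO, 30.2 FPKM in WT, -0.46, adjusted p = 0.0113). Tnfrsf21 reached 1 FPKM in KO libraries only, so the filter admitted it through the group where it was higher. Without a filter it was still called (limma adjusted p = 0.0187). Ifnar2 was not called without KO replicate 1 (0.0524) or WT replicate 1 (0.0546). Fas had 11.1 FPKM in KO and 11.7 FPKM in WT libraries, and Fasl was listed at 0 in all 6.

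Of 17 tested kinases and adaptors of the TNF receptor complex, 1 (5.88%) was called higher and 0 lower in limma (median 0.17). Of all tested genes 10.4% were called higher and 9.2% lower. DESeq2 called 2 of the kinases and adaptors higher. The called gene was Ikbkg, which encodes the kinase regulator NEMO, with 7.12, 4.89 and 7.58 FPKM in KO and 3.06, 3.53 and 3.11 FPKM in WT replicates 1, 2 and 3 (0.81, adjusted p = 0.0111; 0.0505 without KO replicate 1). Of 18 ubiquitin and deubiquitinating enzymes 2 (11.1%) were called higher, close to the 10.4% of all tested genes, and 0 lower, beside 9.2% (median 0.04). Tnfaip3, which encodes A20, an NF-κB-induced brake on RIPK1 and RIPK3 signalling, had 10.03, 11.05 and 9.19 FPKM in KO and 2.92, 3.11 and 6.45 FPKM in WT replicates 1, 2 and 3. The groups did not overlap, although WT replicate 3 was well above the other WT libraries (1.17 ± 0.25 SE, limma adjusted p = 0.0185; 0.0664 and 0.0641 without KO replicate 1 or 2 and 0.0626 and 0.0642 without WT replicate 1 or 2). Spata2, which tethers the deubiquitinase CYLD, had 7.84 FPKM in KO and 6.13 FPKM in WT libraries (0.31, adjusted p = 0.0267). It was not called in edgeR with TMM factors (adjusted p = 0.0526; 0.0439 with RLE factors), nor without KO replicate 1 (0.0962) or WT replicate 1, 2 or 3 (0.0994, 0.089 and 0.0893). The linear ubiquitin ligase genes Rnf31, Rbck1 and Sharpin had log2 fold changes of -0.09, -0.13 and 0.04 and were not called.

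Regulators of the necrosome and of membrane repair were called lower for 4 (16.7%) and higher for 0 of 24 tested genes in limma (median -0.04). Of all tested genes 9.2% were called lower and 10.4% higher. Of the list, edgeR with TMM factors and DESeq2 each called 2 genes higher, none of them among these 24. They came from the 3 listed genes below the FPKM filter, all under 1 FPKM in every library. The flotillins Flot1 and Flot2, lipid raft proteins that take part in removing MLKL from the membrane, had 20.9 and 39.6 FPKM in KO and 30.4 and 51.0 FPKM in WT libraries (-0.53 and -0.36, limma adjusted p = 0.0098 and 0.0251). Flot2 was not called without KO replicate 1 or 2 (0.1 and 0.0718) or WT replicate 1, 2 or 3 (0.104, 0.0878 and 0.0594). The actin-severing protein gene Gsn had 129 FPKM in KO and 174 FPKM in WT libraries (-0.43, adjusted p = 0.0113; 0.0593 without KO replicate 1 and 0.0579 and 0.051 without WT replicate 1 or 3), and the kinase gene Camk2d 1.45 FPKM in KO and 2.46 FPKM in WT libraries (-0.49, adjusted p = 0.00559). The ESCRT genes Chmp4b, Tsg101 and Pdcd6ip, which shed damaged membrane, had log2 fold changes of -0.06, 0.06 and -0.05, and Adar, which edits the RNA that ZBP1 can sense, -0.24 (adjusted p = 0.0895); none was called.

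In the list of caspases and mitochondrial apoptosis, 29 of 32 genes were tested, 4 were called higher and 2 lower (median 0.02). These were 13.8% and 6.9%, not far from the 10.4% and 9.2% of all tested genes. Pmaip1, which encodes the BH3-only protein Noxa, had 3.50, 3.62 and 3.07 FPKM in KO and 0.66, 0.56 and 1.07 FPKM in WT replicates 1, 2 and 3 (1.33 ± 0.13 SE, limma adjusted p = 0.000658), the largest difference of the list. Of the WT libraries only replicate 3 reached 1 FPKM, so the filter admitted Pmaip1 through the KO group, where it was higher. Pmaip1 was still called without a filter (limma adjusted p = 0.00319). Cycs, which encodes cytochrome c, and the survival gene Mcl1, both named after their values were seen, had 32.5 and 43.7 FPKM in KO and 24.6 and 35.7 FPKM in WT libraries (0.39 and 0.28, adjusted p = 0.0126 and 0.0456); Mcl1 was not called in edgeR with TMM factors or in DESeq2 (0.0736 in both). The genes called lower were the BH3-only gene Bmf with 0.370 FPKM in KO and 1.10 FPKM in WT libraries (-0.61, adjusted p = 0.00281), and the mitochondrial protease gene Htra2 with 10.5 FPKM in KO and 15.5 FPKM in WT libraries (-0.52, adjusted p = 0.0102). Bmf reached 1 FPKM in WT libraries only, so the filter admitted it through the group where it was higher. Without a filter it was still called (limma adjusted p = 0.00619). Bcl2a1b, a survival gene with near-identical copies and therefore uncertain, had 17.0 FPKM in KO and 12.4 FPKM in WT libraries (0.43, adjusted p = 0.0401); it was called in 5 of 14 alternatives and lost, among others, without KO replicate 1, 2 or 3 (0.122, 0.0823 and 0.0784) and without WT replicate 2 or 3 (0.0741 and 0.105). Of the inflammatory caspases and gasdermins 5 of 14 were tested, and 1 (20%) was called higher and 2 (40%) lower (median -0.36), Nlrp3 itself among the lower. Casp1 had 4.17, 4.47 and 3.83 FPKM in KO and 0.44, 0.64 and 0.70 FPKM in WT replicates 1, 2 and 3 (1.70 ± 0.10 SE, adjusted p = 8.41e-05). Casp1 reached 1 FPKM in KO libraries only, and Nlrp3 in WT libraries only. The filter thus admitted each through the group where it was higher. Without a filter both were still called (limma adjusted p = 0.000599 and 0.00174). Gsdmd, which encodes the pore protein of pyroptosis, had 16.58, 14.79 and 15.39 FPKM in KO and 27.91, 26.44 and 29.08 FPKM in WT replicates 1, 2 and 3 (-0.80 ± 0.07 SE, adjusted p = 0.000482).

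Interferon-stimulated genes were set beside these results because Zbp1 and Mlkl are interferon-induced in mouse cells. Of 48 tested, 25 (52.1%) were called lower and 1 (2.08%), Oas3, higher (0.37, named after its values were seen). The shares over all tested genes were 9.2% and 10.4%. The list had a median log2 fold change of -0.41. This decrease had been seen in these data before the list was drawn up and is no independent result. The 4 largest called decreases were those of the interferon-inducible GTPases Iigp1 (4.31 FPKM in KO, 13.0 FPKM in WT, -1.43, limma adjusted p = 0.00236), Ifi47 (17.2 FPKM in KO, 40.1 FPKM in WT, -1.17, adjusted p = 0.000101) and Tgtp1 (8.91 FPKM in KO, 20.1 FPKM in WT, -1.09, adjusted p = 0.000342), and of Trim30a (7.73 FPKM in KO, 21.5 FPKM in WT, -1.39, adjusted p = 0.00208). Set beside them, Zbp1 at -0.78 and Mlkl at -0.42 lay within the range of the list, and Ripk3 at -1.78 below its lowest gene. Tradd, Fadd, Casp8, Birc3, Ripk1 and Birc2, between -0.18 and 0.30, lay within that range as well. The position therefore does not set Zbp1 and Mlkl apart.

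Of the genes that the deposited table assigns to the KEGG necroptosis term, 96 besides the 10 were tested, of which 10.4% were called higher and 11.5% lower (median -0.04), close to the 10.4% and 9.2% of all tested genes.

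**Figure D4:**
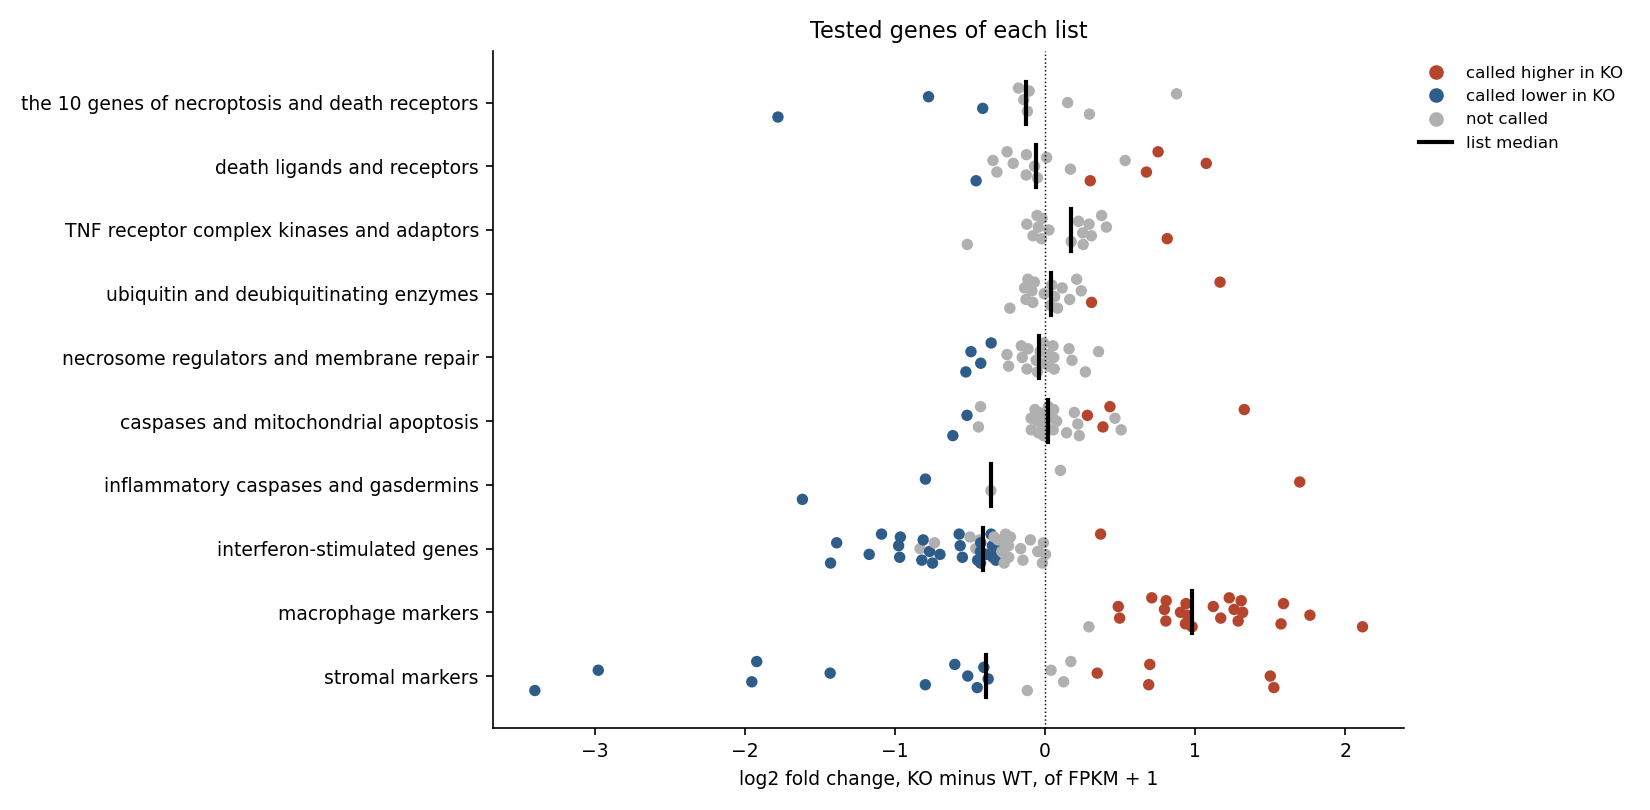
Log2 fold change of FPKM + 1, KO minus WT (horizontal axis), of every tested gene of each list (points; red, called higher in KO; blue, called lower in KO; grey, not called), with the list median as a black line. The interferon-stimulated genes lie mostly below 0 with a median of -0.41, the macrophage markers lie above 0 with a median of 0.98, and the 10 genes at the top have a median of -0.13 with Ripk3 at -1.78.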

How the data were processed

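The submitters' processing notes list cutadapt (1.9), HISAT2 (2.0.4) and StringTie (1.3.4d) with build GRCm38; how counts were made, with which annotation and strand setting, is not stated. The authors deposited FPKM values to 2 decimals and estimated counts per gene. The deposited counts are whole numbers but behave as estimates: 44.4% of those from 1 to 16 are multiples of 4, against 25% if each were as frequent. For 100% of 5837 genes the count-to-FPKM ratio followed one factor per library within 1%. FPKM computed from true counts would give such a factor too, so this shows only that both measures are proportional. About 4 counts per fragment is an inference from the values, and floors cover counting error only.

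The main test, limma 3.58.1 (R 4.3.3, eBayes with trend, two-sided), compared genotypes on log2(FPKM + 1) for the 12136 genes that reached 1 FPKM in 3 or more of the 6 libraries; p-values were adjusted by Benjamini-Hochberg at 0.05. FPKM were the main measure because the counts are estimates proportional to them. Alternatives were no filter, a filter on the mean FPKM, a pseudocount of 0.1, TMM-scaled FPKM, edgeR 4.0.16 (quasi-likelihood, TMM or RLE factors) and DESeq2 1.42.0 on the estimated counts, a replicate block, and each library left out. Simulated data served to test limma (pseudocount of 1, no block), edgeR with TMM factors and DESeq2, but not the other alternatives. The 13 gene lists held 276 entries, all matched. The 10 genes and the lists were chosen with earlier results of these data known. Named were, of each pathway list, the 4 called genes with the largest change, and every called death ligand or receptor; further genes (Tnfrsf1a, Fas, Fasl, Casp9, Cycs, Mcl1, Oas3, Adar, Tnfsf15, the linear ubiquitin ligase and the ESCRT genes) were named after their values were seen. Upstream sequences are from RefSeq (GRCm38.p6), gene overlaps and lengths from GENCODE M21.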

Additional observations from a re-analysis of the deposited data

How the results depend on the processing

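Ripk3, Zbp1 and Mlkl were called lower in each of the 14 alternatives, Ripk3 with log2 fold changes of -2.0 to -1.73, and of the other 7 genes Birc2 alone was called, in 1 alternative (0.45, without KO replicate 3; its range with 1 library left out was 0.21 to 0.45), which brought the genes called higher with 1 library left out to between 0 and 1. Over all tested genes DESeq2 called 1685 of 20940 lower (8.05%), against 1117 of 12136 (9.2%) in the main fit. With 1 library left out, between 705 and 1464 genes were called higher and between 583 and 1281 lower. Deviations from the group mean correlated at 0.02, 0.17 and 0.10 between same-numbered libraries of both genotypes, and between -0.17 and 0.08 between differently numbered ones. With 3 libraries per group these values cannot settle whether the numbers stand for a pairing. With the replicate block 1106 genes were called higher and 980 lower, and the calls of the 10 genes stayed the same. In that limma fit Flot2 (adjusted p = 0.0635) and Spata2 (0.058) lost their calls, which left 3 necrosome regulators called lower. Counts within the short lists moved as follows. With the block, 2 kinases and adaptors, 1 ubiquitin enzyme and 0 interferon-stimulated genes were called higher. In DESeq2, 2 kinases and adaptors were called higher, in edgeR (TMM) 1 ubiquitin enzyme. In edgeR with either scaling and in DESeq2, 2 necrosome regulators and 3 inflammatory caspases and gasdermins were called higher. In edgeR (TMM) and DESeq2 those 2 regulators were genes below the filter of the main fit. Without a filter, 3 inflammatory caspases and gasdermins and 2 apoptosis genes were higher, and with the mean filter 1 apoptosis gene was lower. With 1 library left out, the calls higher and lower ranged from 2 to 3 and 0 to 1 for death ligands and receptors, 1 to 5 and 0 to 1 for kinases and adaptors, 0 to 3 and 0 to 1 for ubiquitin enzymes, 0 to 2 and 2 to 4 for necrosome regulators, 1 to 4 and 1 to 3 for apoptosis genes, 0 to 1 and 1 to 2 for inflammatory caspases and gasdermins, and 0 to 1 and 18 to 26 for interferon-stimulated genes. The fits tested unlike sets of genes: 12136 in the main fit, 26722 without a filter, 17479 in edgeR and 20940 in DESeq2. The main filter left out 9 of the 14 inflammatory caspases and gasdermins and 3 of the 27 necrosome regulators. Counts of these fits thus have different denominators. The shifts were not tested further. Among the 22 further named genes 36 values lost their call, 0 reversed and 262 stayed the same. Casp1 and Tnfrsf21 were tested in 11 and Bmf in 10 of the 14 alternatives. The tally leaves out the fits in which they failed the filter: those without a KO library for Casp1 and Tnfrsf21, and those without a WT library or with the mean filter for Bmf. At the depth of these libraries, KO values of Ripk3 rest on as few as 160 fragments.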

Other observations

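Cflar was 1 of 36 genes, of 11902 with a mean FPKM of at least 1, whose level in WT replicate 1 was under 0.5 times that of the next lowest library. Each of the other libraries had between 32 and 50 such genes. Casp9, the initiator caspase of the mitochondrial route, was at 2.74, 2.47 and 3.12 FPKM in KO replicates 1, 2 and 3 and at 2.97, 1.05 and 1.29 FPKM in WT replicates 1, 2 and 3, so that WT replicate 1 lay among the KO libraries; it was not called.

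Below the expression filter, Tnfsf15, a TNF family ligand, was at 0.62, 0.65 and 0.38 FPKM in KO libraries and at 0, 0.02 and 0 FPKM in WT libraries. It was left out of the main test, and its values in fits without that filter are not given here.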
